A study of Arabidopsis thaliana with 6 samples.

Results

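The ATG8 family of *Arabidopsis* comprises 9 genes, ATG8A to ATG8I, which were found by their gene identifiers among the 27444 genes of the count and FPKM files. RNA was sequenced from whole seedlings of 2 genotypes with 3 libraries each, *lon1-2atg5-1* and *atg5-1*, all grown under normal conditions. The *lon1-2atg5-1* line is a double mutant with T-DNA insertions in LON1 (AT5G26860), a protease of the mitochondrial matrix, and in ATG5 (AT5G17290). The *atg5-1* line carries the ATG5 insertion alone. Both lines are in the Columbia background and share the *atg5-1* allele. The comparison thus describes how ATG8 transcripts differed between plants with both insertions and plants with the ATG5 insertion alone. An effect of the LON1 insertion cannot be told apart here from other differences between the 2 lines. Wild-type and single *lon1-2* libraries were not used here. Seedlings were 7 days old in the series description and older in the study's methods. Each mutation was represented by 1 allele, and nothing in the sources used here says whether the 3 libraries of a genotype came from separate pools of plants. The tests treat these libraries as replicates, so their p-values may not extend to other plants of the genotypes.

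ATG8 is a small ubiquitin-like protein that coats the growing autophagosome, the double membrane that wraps cytoplasm and organelles for breakdown in the vacuole. The protease ATG4 trims its C-terminus to a glycine, the E1-like enzyme ATG7 and the E2-like enzyme ATG3 activate and transfer it, and the ATG12-ATG5-ATG16 complex helps to join the glycine to the lipid phosphatidylethanolamine. On the membrane, ATG8 binds cargo receptors, and plants lacking ATG5 fail to lipidate it. The transcript values below therefore describe gene expression and not ATG8 lipidation or autophagic flux.

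Libraries held 21964283 to 23929531 counts, of which 6.45% to 7.40% fell on the top 10 genes. The *lon1-2atg5-1* libraries differed more among themselves (chi-square per degree of freedom 12.1 to 31.8 between pairs, highest for replicates 1 and 3) than the *atg5-1* libraries did (3.83 to 5.65), and leaving out any 1 library kept the calls of the ATG8 members. LON1 had 2.55, 1.68 and 1.16 FPKM in *lon1-2atg5-1*, against 8.53, 6.95 and 7.94 FPKM in *atg5-1* (log2 fold change −2.10, SE 0.22, adjusted p = 0.000141), so reads of the disrupted gene remained but every double mutant library lay below every *atg5-1* library. ATG5 reads were present in both genotypes, with 27.1, 19.6 and 12.3 FPKM in *lon1-2atg5-1*, against 10.4, 10.8 and 9.09 FPKM in *atg5-1* (log2 fold change 0.98, SE 0.23, adjusted p = 0.00786). Green shoot markers were abundant in both genotypes, with a summed level of 32263 to 35467 FPKM in *lon1-2atg5-1* and 30293 to 31404 FPKM in *atg5-1*, and the 3 pollen markers summed to at most 0.0489 FPKM and 0.0468 FPKM.

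The C-terminal ends of the coding sequences divide the family, which is why they are shown for each member. Each sequence is the last stretch of the coding sequence, read 5′ to 3′ from the TAIR10.1 genome with RefSeq annotation, with the codon of the conserved glycine in capitals and the stop codon at the end.
ATG8A: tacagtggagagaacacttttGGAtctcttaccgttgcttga
ATG8B: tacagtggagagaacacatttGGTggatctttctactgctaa
ATG8C: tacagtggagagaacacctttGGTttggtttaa
ATG8D: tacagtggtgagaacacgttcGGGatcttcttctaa
ATG8E: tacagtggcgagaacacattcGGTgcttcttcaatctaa
ATG8F: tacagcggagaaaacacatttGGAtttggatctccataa
ATG8G: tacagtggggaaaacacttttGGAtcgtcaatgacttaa
ATG8H: tacagcaccgagaaaactttcGGCtaa
ATG8I: tatagcagtgagaaaacctttGGTtga
ATG8A to ATG8G carried 2 to 5 codons between the glycine codon and the stop codon. In ATG8H and ATG8I the glycine codon stood directly before the stop codon, with 0 codons to be trimmed. ATG8C also has an annotated coding form of 94 residues without this end. Coding sequences were 56.9% (ATG8G and ATG8I) to 84.8% (ATG8A and ATG8B) identical in pairs, and ATG8H and ATG8I were 68.4% identical. At 90% identity over 100 bp, 0 members matched another member, and ATG8I matched AT3G15578, which overlaps it on the opposite strand.

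Transcripts of 6 of the 9 members fell in *lon1-2atg5-1* relative to *atg5-1* (ATG8A, ATG8C, ATG8E, ATG8F, ATG8H and ATG8I), and 0 rose. All 9 members passed the filter on low counts. Across the 20157 genes tested, edgeR's quasi-likelihood test called 25.8% lower and 27.7% higher, with the adjusted p required to be under 0.05. The count of 0 members higher held in edgeR at an unadjusted p under 0.05, and in DESeq2 and edgeR's exact test at an adjusted p under 0.05. The 6 members that fell were also the 6 whose FPKM did not overlap between the genotypes, which was seen in the lower direction for 33.3% of the genes tested. A fold change over 1.5 was added for 5 of the 6 (all but ATG8C), against 13.7% of the genes tested. The median log2 fold change of the 9 members was −0.64, against −0.00034 for all genes tested. In whole seedlings, fewer cells of a type and less RNA per cell cannot be told apart.

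**Figure D1:**
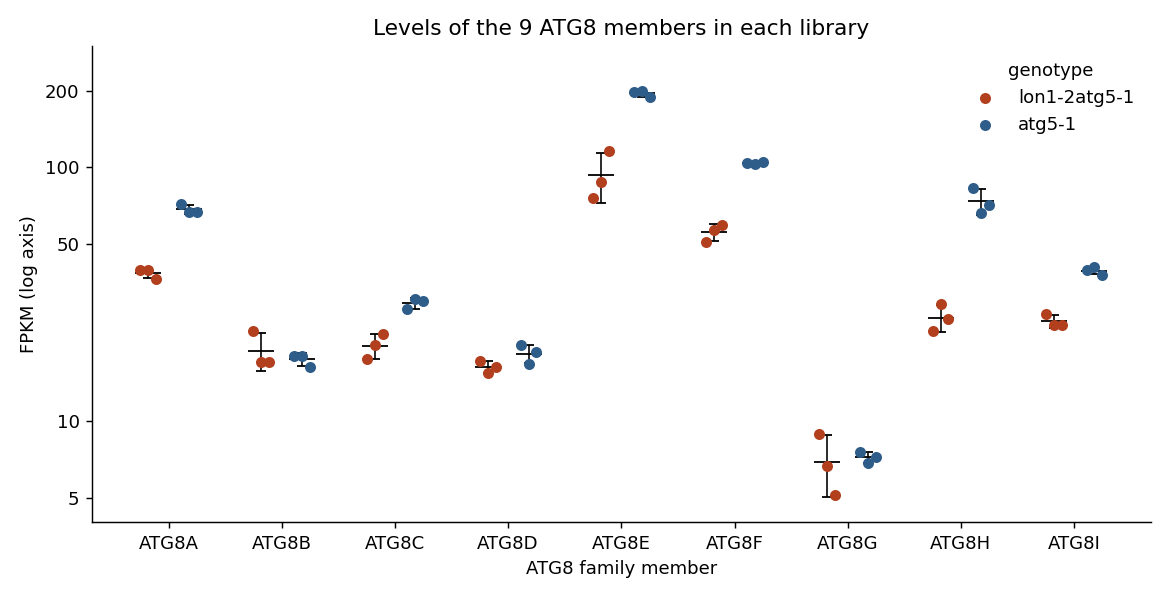
FPKM (vertical log axis) of each ATG8 member (horizontal axis) in the 3 *lon1-2atg5-1* libraries (left of each pair) and the 3 *atg5-1* libraries (right), with the mean as a bar and the SD as whiskers. The genotypes are apart for ATG8A, ATG8C, ATG8E, ATG8F, ATG8H and ATG8I and overlap for ATG8B, ATG8D and ATG8G.

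ATG8E (AT2G45170, chromosome 2, 18624264 to 18625791, plus strand), the most abundant member in both genotypes, had 75.3, 87.3 and 116 FPKM in *lon1-2atg5-1*, against 198, 199 and 188 FPKM in *atg5-1*. The highest double mutant library, replicate 3, stayed well below the lowest *atg5-1* library. Its log2 fold change was −1.04 (SE 0.16, adjusted p = 0.000893), the second largest fall of the family. The *lon1-2atg5-1* libraries differed more among themselves for ATG8E (92.9 ± 20.9 FPKM) than the *atg5-1* libraries did (195 ± 5.83 FPKM, SD, n = 3 each).

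ATG8H (AT3G06420, chromosome 3, 1954990 to 1956397, minus strand), a member that needs no trimming before lipidation, showed the largest fall of the family. It had 22.6, 28.8 and 25.2 FPKM in *lon1-2atg5-1*, against 83.0, 66.0 and 70.7 FPKM in *atg5-1*, a gap wider than the spread of either genotype. The log2 fold change was −1.49 (SE 0.11, adjusted p = 4.02e-05), which is 2.81-fold lower. The study placed ATG8H in a list of transcripts picked with the help of these *atg5-1* libraries, so its direction is not independent evidence.

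ATG8I (AT3G15580, chromosome 3, 5273526 to 5275095, minus strand), the other member that ends on the glycine, fell by less. It had 26.4, 24.0 and 23.8 FPKM in *lon1-2atg5-1*, against 39.2, 40.5 and 37.8 FPKM in *atg5-1*, and both genotypes were tight. The log2 fold change was −0.64 (SE 0.064, adjusted p = 0.000130). Of its 992 exonic bases, 183 (18.4%) overlap AT3G15578 on the opposite strand, a gene with 0 counts in all 6 libraries, and the strand setting of the counting is not given in the sources used here.

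The ratio of ATG8H to ATG8I was 0.855, 1.20 and 1.06 in *lon1-2atg5-1*, against 2.11, 1.63 and 1.87 in *atg5-1*. The ratios did not overlap (exact permutation test, two-sided, p = 0.10, the smallest p that 3 against 3 allows). Both genes were thus expressed at about the same level per length in the double mutant, whereas ATG8H was above ATG8I in every *atg5-1* library.

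ATG8F (AT4G16520, chromosome 4, 9306339 to 9308538, minus strand) was the second most abundant member in both genotypes. It had 50.6, 56.4 and 59.0 FPKM in *lon1-2atg5-1*, against 104, 103 and 104 FPKM in *atg5-1*. The *atg5-1* libraries were nearly level, and the log2 fold change was −0.88 (SE 0.084, adjusted p = 0.000101).

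ATG8A (AT4G21980, chromosome 4, 11655562 to 11657034, plus strand) had 39.2, 39.2 and 36.3 FPKM in *lon1-2atg5-1*, against 71.4, 66.6 and 66.3 FPKM in *atg5-1*. The libraries of each genotype lay close together, and the log2 fold change was −0.81 (SE 0.057, adjusted p = 2.80e-05), the smallest SE in the family. The 3′ neighbour APR3 (AT4G21990), an adenosine phosphosulfate reductase gene on the opposite strand, overlaps 27 of its 945 exonic bases. APR3 rose in *lon1-2atg5-1*, with a log2 fold change of 0.58 (adjusted p = 0.00699), the opposite direction to ATG8A.

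ATG8C (AT1G62040, chromosome 1, 22932760 to 22934549, plus strand) fell with a log2 fold change of −0.52 (SE 0.11, adjusted p = 0.00394). It had 17.5, 20.0 and 22.0 FPKM in *lon1-2atg5-1*, against 27.6, 30.3 and 29.7 FPKM in *atg5-1*, and the genotypes were apart by a smaller margin than for the other members that fell.

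The 3 remaining members, which are among the less abundant ones, did not pass the test, and their intervals are given because a missed threshold does not show equal levels. ATG8B (AT4G04620, chromosome 4, 2328442 to 2330590, minus strand) had 22.7, 17.1 and 17.1 FPKM in *lon1-2atg5-1*, against 18.1, 18.1 and 16.3 FPKM in *atg5-1*, with 1 double mutant library above all others. Its log2 fold change was 0.14, with a 95% interval from −0.11 to 0.39 and an adjusted p of 0.300 by edgeR. Without *lon1-2atg5-1* replicate 1 it was 0.017, so the size of the ATG8B value rests on that library. ATG8D (AT2G05630, chromosome 2, 2082894 to 2084905, minus strand) had 17.3, 15.5 and 16.4 FPKM in *lon1-2atg5-1*, against 19.9, 16.8 and 18.6 FPKM in *atg5-1*, and the ranges overlapped slightly. Its log2 fold change was −0.14, with an interval from −0.33 to 0.054 and an adjusted p of 0.192.

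ATG8G (AT3G60640, chromosome 3, 22415751 to 22417548, plus strand) was the least abundant member in both genotypes. It had 8.89, 6.68 and 5.13 FPKM in *lon1-2atg5-1*, against 7.56, 6.85 and 7.23 FPKM in *atg5-1*, so the double mutant libraries enclosed the *atg5-1* values. The log2 fold change was −0.043, with an interval from −0.44 to 0.35 and an adjusted p of 0.846. Without *lon1-2atg5-1* replicate 3 it was 0.12, so the direction for ATG8G rests on 1 library.

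**Figure D2:**
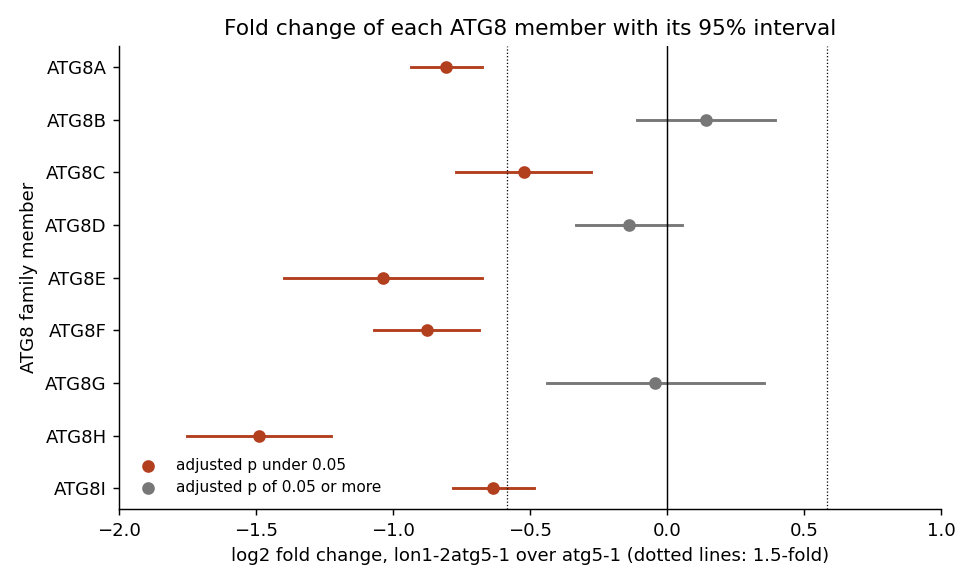
Log2 fold change of each ATG8 member (horizontal axis, *lon1-2atg5-1* over *atg5-1*) with its 95% interval, from edgeR's fit over all genes. Points run from −1.49 for ATG8H to 0.14 for ATG8B, and the intervals of ATG8B, ATG8D and ATG8G include 0.

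By mean FPKM, the family had a less uneven set of levels in the double mutant. In *lon1-2atg5-1* the order of mean FPKM was ATG8E (92.9), ATG8F (55.3), ATG8A (38.2), ATG8H (25.5), ATG8I (24.7), ATG8C (19.8), ATG8B (19.0), ATG8D (16.4) and ATG8G (6.90). The ranges of ATG8H and ATG8I overlapped there, as did those of ATG8C and ATG8B and of ATG8B and ATG8D. In *atg5-1* the order was ATG8E (195), ATG8F (103.8), ATG8H (73.3), ATG8A (68.1), ATG8I (39.2), ATG8C (29.2), ATG8D (18.4), ATG8B (17.5) and ATG8G (7.22), with overlap between ATG8H and ATG8A and between ATG8D and ATG8B. The highest mean was 13.5 times the lowest in *lon1-2atg5-1* and 27.0 times in *atg5-1*. Both ends of this ratio varied among the double mutant libraries. From replicate 1 to 3, ATG8E had 75.3, 87.3 and 116 FPKM and ATG8G 8.89, 6.68 and 5.13 FPKM. The ratio was therefore not the same in each of them, and replicate 3 lay nearest to *atg5-1*.

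Summed over the family, ATG8 transcripts reached 280.4, 295 and 321 FPKM in *lon1-2atg5-1*, against 569, 547 and 539.6 FPKM in *atg5-1*. Every double mutant library was far below every *atg5-1* library. The means were 299 ± 20.5 FPKM and 552 ± 15.2 FPKM (SD, n = 3 each), so the double mutant stood at 54.1% of *atg5-1* (log2 difference −0.89; exact permutation test, two-sided, p = 0.10, the smallest p that the design allows). The 7 members with codons after the glycine summed to 249 ± 20.9 FPKM in *lon1-2atg5-1* and 439 ± 7.82 FPKM in *atg5-1*, a log2 difference of −0.83. ATG8H and ATG8I together summed to 50.3 ± 2.21 FPKM in *lon1-2atg5-1* and 112 ± 8.52 FPKM in *atg5-1*, a log2 difference of −1.16.

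Most of the drop of 253.0 FPKM in the mean sum came from the 4 members most abundant in *atg5-1*. ATG8E accounted for 40.4% of it, ATG8F for 19.2%, ATG8H for 18.9% and ATG8A for 11.8%, which is 90.3% for these 4 members. Their mean shares of the summed FPKM in *atg5-1* were 35.4%, 18.8%, 13.3% and 12.3% in the same order. The parts of the drop thus largely followed abundance, with ATG8H above its share and ATG8A slightly below. ATG8B, ATG8D and ATG8G together had 42.3 ± 5.76 FPKM in *lon1-2atg5-1* and 43.1 ± 2.06 FPKM in *atg5-1* (SD, n = 3 each), and their ranges overlapped (exact permutation test, two-sided, p = 0.80).

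**Figure D3:**
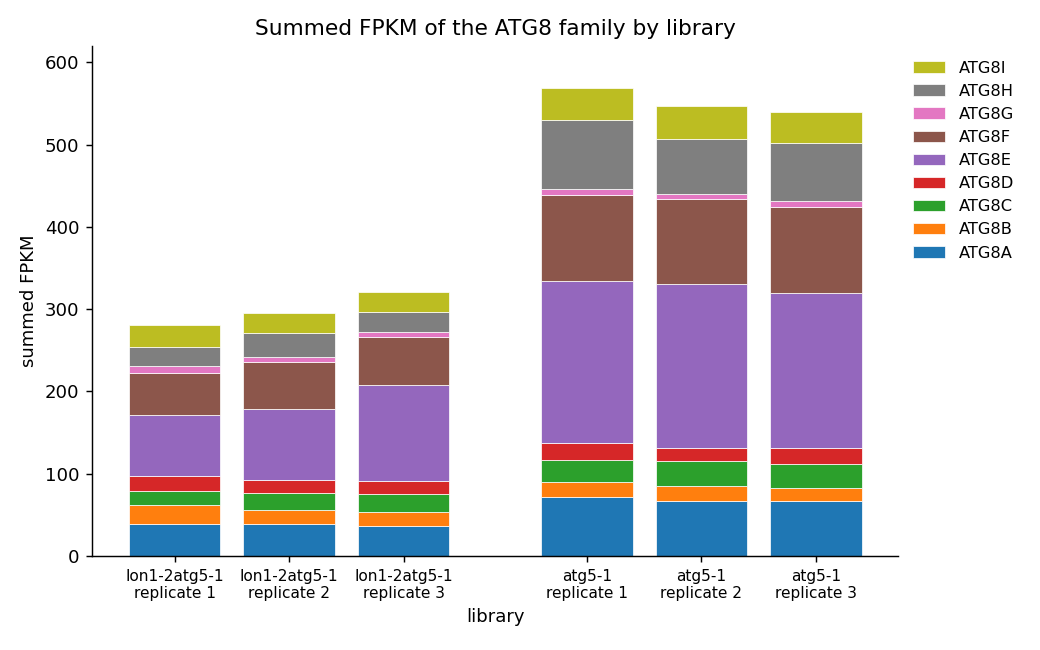
Summed FPKM of the ATG8 family (vertical axis) in each library, the 3 *lon1-2atg5-1* libraries on the left and the 3 *atg5-1* libraries on the right, with 1 colour per member. The sums are 280.4 to 321 FPKM in *lon1-2atg5-1* and 539.6 to 569 FPKM in *atg5-1*, and ATG8E is the largest segment in each library.

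The composition of the family differed as well. ATG8H made up 8.05%, 9.77% and 7.86% of the summed FPKM in *lon1-2atg5-1*, against 14.6%, 12.1% and 13.1% in *atg5-1*, with no overlap. ATG8B made up 8.10%, 5.81% and 5.32% in *lon1-2atg5-1*, against 3.18%, 3.31% and 3.02% in *atg5-1*, so its share was about doubled (202% of the mean *atg5-1* share) at a level that did not pass the test. The size of this rise leaned on *lon1-2atg5-1* replicate 1. The mean shares differed by 2.39 percentage points without that library and by 3.24 percentage points with all libraries. The shares of ATG8C, ATG8D, ATG8G and ATG8I were likewise higher in *lon1-2atg5-1* without overlap, and those of ATG8A, ATG8E and ATG8F overlapped. For ATG8I the gap was very narrow, from 7.41% in the highest *atg5-1* library to 7.43% in the lowest *lon1-2atg5-1* library. Its share of the summed counts gave p = 0.2 (exact permutation test, two-sided). None of the 9 shares can pass a threshold of 0.05 in this design, since p was 0.10 at the least (exact permutation test, two-sided) and 0.15 after adjustment over the 9 shares, and shares of one sum are not independent of each other.

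TGA transcription factors bind DNA with the core letters TGACG, and TGA9 is known as an activator of ATG8 genes in *Arabidopsis*. The 250 bases before each annotated gene start were searched for TGACG on both strands. The letters occurred before 6 of the 9 members (ATG8A, ATG8E, ATG8F, ATG8G, ATG8H and ATG8I), against 18.6% of the 27443 windows of all protein-coding genes. The G-box CACGTG occurred before 0 of the 9 members, against 6.49% of all windows, so the 2 motifs overlapped nowhere. The last 100 bases before the start are shown for 5 members as examples of this shared feature, and 25 bases around the match for ATG8H, all in TAIR10.1 and 5′ to 3′ on the strand of the gene, with TGACG or its reverse complement CGTCA in capitals.
ATG8A, chr4:11655462-11655561, plus strand: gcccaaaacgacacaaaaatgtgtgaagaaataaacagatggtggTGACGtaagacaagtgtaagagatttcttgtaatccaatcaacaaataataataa
ATG8E, chr2:18624164-18624263, plus strand: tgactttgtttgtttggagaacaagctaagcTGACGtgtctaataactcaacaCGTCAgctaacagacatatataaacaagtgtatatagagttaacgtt
ATG8F, chr4:9308539-9308638, minus strand: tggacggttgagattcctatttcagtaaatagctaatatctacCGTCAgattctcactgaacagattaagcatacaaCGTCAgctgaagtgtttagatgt
ATG8G, chr3:22415651-22415750, plus strand: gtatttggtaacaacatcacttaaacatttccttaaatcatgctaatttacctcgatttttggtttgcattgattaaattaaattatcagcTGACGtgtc
ATG8I, chr3:5275096-5275195, minus strand: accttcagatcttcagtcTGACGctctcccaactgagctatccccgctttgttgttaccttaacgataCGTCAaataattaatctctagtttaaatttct
ATG8H, chr3:1956472-1956496, minus strand: agataaactgTGACGtgcacaagaa
ATG8E and ATG8F had 2 matches each within 69 bases and 57 bases of the start. ATG8I had 3 matches in the 250 bases, of which 2 are shown, and the one 82 to 78 bases before the start lies in a tRNA gene (AT3G15585). The match of ATG8H, 89 to 85 bases before its start, lies in an exon of the neighbouring gene PPR2 (AT3G06430), whose end is 12 bases away. Of the 6 members with a match 5 fell and ATG8G did not pass the test, and of the 3 without one ATG8C fell. A match describes letters only, and binding was not measured.

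Transcripts of all 3 TGA factors examined fell in *lon1-2atg5-1*. TGA9 (AT1G08320) had 2.79, 3.17 and 3.58 FPKM in *lon1-2atg5-1*, against 10.2, 8.64 and 8.20 FPKM in *atg5-1*, with a log2 fold change of −1.47 (SE 0.13, adjusted p = 6.63e-05). TGA10 (AT5G06839), its close relative, had 2.61, 2.43 and 2.00 FPKM in *lon1-2atg5-1*, against 6.94, 5.30 and 4.79 FPKM in *atg5-1* (log2 fold change −1.25, SE 0.16, adjusted p = 0.000373). TGA1 (AT5G65210), known from salicylic acid signalling and nitrate responses, had 18.5, 18.0 and 19.5 FPKM in *lon1-2atg5-1*, against 32.2, 27.9 and 32.4 FPKM in *atg5-1* (log2 fold change −0.69, SE 0.078, adjusted p = 0.000208). For each of the 3 genes the genotypes did not overlap, which was seen in the lower direction for 33.3% of the genes tested. The part of the TGA factors in the ATG8 result was not tested.

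Genes that act with ATG8 also moved mainly downwards. Of 8 genes for ATG8 processing and lipidation, 5 fell, 0 rose and 3 did not pass the test, with a median log2 fold change of −0.29. The lowest of those that passed was ATG12A, which encodes the ubiquitin-like partner of ATG5, at −0.86 (adjusted p = 0.000105), and the highest was the ATG8 protease gene ATG4A at −0.25 (adjusted p = 0.0135). The other ATG12 gene of the list, ATG12B, went the other way but did not pass the test (log2 fold change 0.31, adjusted p = 0.102 by edgeR). It had 6.32, 6.46 and 5.35 FPKM in *lon1-2atg5-1*, against 5.30, 4.28 and 5.32 FPKM in *atg5-1*, higher by a narrow margin without overlap. Of 8 genes of the ATG1 kinase complex, which starts autophagosome formation, 7 fell and 0 rose. They ranged from −0.94 for the regulatory subunit ATG101 (adjusted p = 2.35e-05) to −0.29 for ATG13B (adjusted p = 0.0294). All 6 genes for membrane delivery and the phosphatidylinositol 3-kinase complex fell, from −0.71 for the lipid transfer protein gene ATG2 (adjusted p = 0.000102) to −0.30 for ATG18A (adjusted p = 0.00543). DESeq2 called 5 of the 8 ATG1 complex genes lower, and 0 genes of these 3 lists rose in edgeR, also at an unadjusted p under 0.05, or in DESeq2. In these 3 lists together 18 of 22 genes fell, against 25.8% of all genes tested, and their median was −0.40. Only 3 of the 22 fell by more than 1.5-fold, which is about the 13.7% seen over all genes tested.

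Genes for proteins that bind ATG8 were mixed. Of 5 receptor genes, 2 fell, 1 rose and 2 did not pass the test, against 25.8% lower and 27.7% higher over all genes tested. A list of 5 genes is too short to set these counts apart from those shares. ATI2, which encodes a receptor for plastid and ER cargo, had the lowest log2 fold change at −0.66 (adjusted p = 0.000282), and RPN10, which encodes a proteasome subunit that serves as a receptor for proteasomes, rose by 0.28 on the log2 scale (adjusted p = 0.0118). Of the 5 reference genes, 0 passed the test in edgeR, DESeq2 or edgeR's exact test and 1 had an unadjusted p under 0.05 in edgeR, and their log2 fold changes ran from −0.15 to 0.11. In FPKM 2 of the 5 lay lower in *lon1-2atg5-1* without overlap, against 33.3% of all genes tested. The 5 summed to 228 to 235 FPKM in *lon1-2atg5-1* and 248 to 253 FPKM in *atg5-1*. Scaled to these 5 genes, 6 ATG8 members fell, and the summed level stood at a log2 difference of −0.85.

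**Figure D4:**
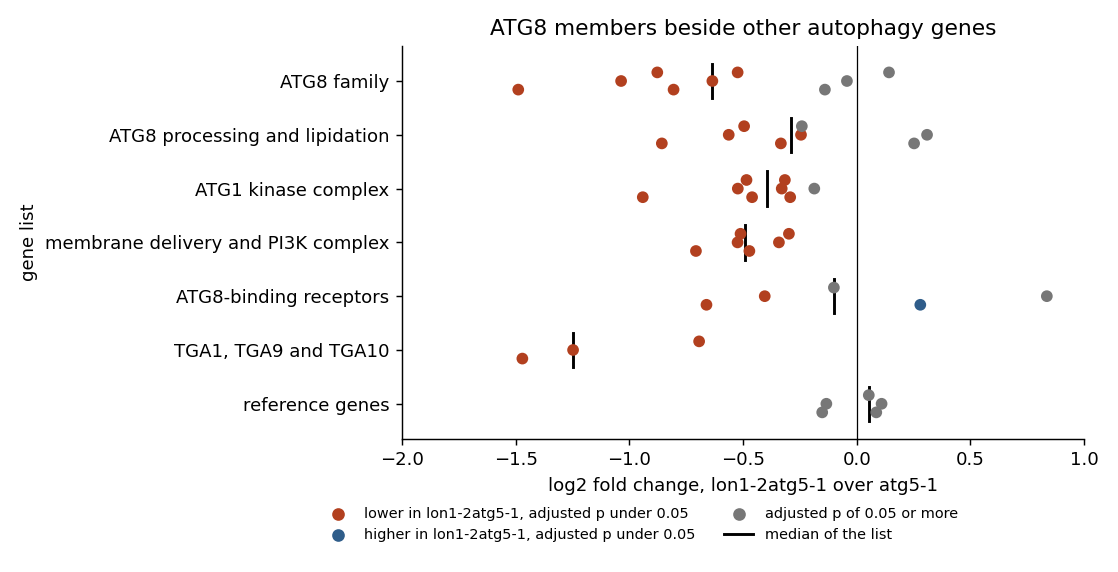
Log2 fold changes (horizontal axis, *lon1-2atg5-1* over *atg5-1*) of the ATG8 members and of 6 other gene lists (rows), 1 point per gene, with the list's median as a black bar. The ATG8 members have a median of −0.64 and reach −1.49, the 5 reference genes lie between −0.15 and 0.11, and red and blue points passed the test as lower and higher.

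Marker genes of other tissues and states differed between the genotypes in part, and their counts stand against 25.8% of all genes tested called lower and 27.7% called higher. Genes raised by darkness and senescence, conditions that also raise ATG8 transcripts, were split: of 6 tested, 4 fell and 2 rose, and the 7 listed genes summed to 272 to 576 FPKM in *lon1-2atg5-1*, against 999.9 to 1259 FPKM in *atg5-1*. The lowest, the asparagine synthetase gene ASN1, had 2.12, 9.88 and 12.1 FPKM in *lon1-2atg5-1*, against 67.1, 94.1 and 67.8 FPKM in *atg5-1* (log2 fold change −3.20, adjusted p = 0.00125). The highest, SAG13, rose by 3.56 on the log2 scale (adjusted p = 8.92e-05). Of 6 root markers, 2 fell, a share near that of all genes, COBL9 by 1.82 and CASP1 by 1.37 on the log2 scale. The other 4 did not pass the test, and the log2 fold changes of the list reached 0.11. The list summed to 29.2 to 32.5 FPKM in *lon1-2atg5-1*, against 43.0 to 53.5 FPKM in *atg5-1*. Within these sums, CASP1 alone had a mean of 8.52 FPKM in *lon1-2atg5-1* and 22.5 FPKM in *atg5-1*. Of 5 green shoot markers, 2 rose, also near the share of all genes, CAB3 by 0.61 and RBCS1A by 0.34 on the log2 scale. RCA, named after its values were seen, had 3294, 3866 and 4437 FPKM in *lon1-2atg5-1*, against 4711, 5154 and 4900.4 FPKM in *atg5-1*, without overlap but short of the threshold in edgeR (log2 fold change −0.32, adjusted p = 0.0912), and DESeq2 called 1 green shoot marker lower. All 4 seed storage markers rose, at a summed level of 7.35 to 17.8 FPKM in *lon1-2atg5-1* and 0.118 to 0.295 FPKM in *atg5-1*. The part of these markers in the ATG8 result was not tested.

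The 5 genes whose log2 CPM followed the log2 summed FPKM of the family most closely over the 6 libraries were CCP3 (AT2G25240), AT5G06800, PHT1;1 (AT5G43350), AT3G13435 and AT3G11780, with Pearson's r from 0.99889 to 0.99961 across these libraries. PHT1;1, a phosphate transporter, had 18.2, 19.8 and 20.7 FPKM in *lon1-2atg5-1*, against 45.7, 41.3 and 41.6 FPKM in *atg5-1*. All 5 fell, with log2 fold changes from −2.68 to −0.65. The 6 libraries form 2 genotypes and share their depth, and 2197 of 20148 genes had an r over 0.95, so such values describe little more than the gap between the genotypes.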

How the data were processed

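Per the labels and the study's methods, the authors made stranded mRNA libraries from seedlings, used Trimmomatic to trim the read pairs, hisat2 to map them to TAIR10 and htseq-count to assign them to genes. The deposited counts are raw. The authors name cufflinks for the FPKM, and the deposited FPKM could be rebuilt from count, gene length and library total within a relative difference of 6.15e-08. For all 23819 genes with reads, the length this implies was the exonic length in TAIR10.1. Organelle genes (0 in the files) were not tested. Samples were grouped by their labels.

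Counts were filtered (filterByExpr, 20157 genes), scaled by TMM (factors 0.962 to 1.03) and tested with edgeR 4.0.16 (quasi-likelihood) in R 4.3.3, with Benjamini-Hochberg adjustment over all genes and a threshold of 0.05. SE was taken from the log2 fold change and the F statistic (absolute change over √F). Summed FPKM and shares were compared with exact permutation tests (scipy 1.17.1). Alternatives used DESeq2 1.42.0, edgeR's exact test, limma 3.58.1 on log2(FPKM + 1) and log2(FPKM + 0.1), other scalings and filters, other thresholds, the replicate block and each library left out. Overlaps of sequence were searched with BLAST 2.17.0. Upstream windows were read from the TAIR10.1 genome. Within each genotype, pairs of libraries differed by a chi-square per degree of freedom of at least 3.83, so each was kept as a replicate.

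All 9 members are described. From other lists the highest and lowest gene past the test were named, with TGA1, TGA9, TGA10, LON1, ATG5 and the 5 genes most correlated with the summed FPKM. APR3, AT3G15578, AT3G15585 and PPR2 were named for their position beside a member. ATG12B and RCA were named after their values were seen. The members and lists were chosen with earlier results of these data known.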

Additional observations from a re-analysis of the deposited data

How the results depend on the processing

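The 6 members that fell kept that call in each of the 16 other fits (DESeq2, edgeR's exact test, 3 other scalings, 2 other filters, the replicate block, limma on FPKM with 2 pseudocounts, and each of the 6 libraries left out), and ATG8B, ATG8D and ATG8G passed in none. With a fold change over 1.5 added, 5 members were called, and 5 also with the study's own rule (p under 0.05 without adjustment), and with a fold change over 2 only 2 (ATG8E and ATG8H). With a library left out, the number of members past the test stayed at 6, ATG8E ran between −1.25, when *lon1-2atg5-1* replicate 3 was dropped, and −0.89, when replicate 1 of that genotype was dropped, ATG8B from 0.017 to 0.21 and ATG8G from −0.24 to 0.12. The median over the members ran from −0.66 to −0.60 over these, against −0.64 with all libraries. The share of ATG8A differed by 0.51 percentage points and by −0.047 to 1.29 percentage points with a library left out. The log2 difference of the summed FPKM ran from −0.94 to −0.79 over its 12 alternatives. As a block, the replicate number left 6 members past the test, and an exact sign-flip permutation test of the 3 pairs of sums gave p = 0.25, the smallest it can give. Libraries of the same number did not deviate together (r of −0.037, −0.115 and −0.010), so the number was taken as a name only.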
